A study of Homo sapiens with 6 samples.

Results

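The MYC, MAX, MXD and MLX network is a set of 10 genes for transcription factors of the basic helix-loop-helix leucine zipper class. Its members were taken by name from the deposited gene count table (MYC, MAX, MXD1, MXD3, MXD4, MXI1, MNT, MLX, MLXIP and MLXIPL), and all 10 were found among the 58735 genes of the table. The rule for members used no measured value, but it was written with earlier results of these data known. RNA was sequenced from HCT-8, an established human colon cancer cell line grown as a monolayer in RPMI-1640 with 10% fetal bovine serum, in 3 samples of untreated cells (control) and 3 of cells given 5-fluorouracil (5-FU). 5-FU, a pyrimidine analogue used against colorectal cancer, was given at the concentration that inhibits by 10%, as a stand-in for continuous infusion; the sources used here give neither its molar concentration nor the length of treatment. Both groups are the same line, no genetic change is labelled, and nothing says that the samples of a group came from separate cultures. The p-values therefore set group differences only against the scatter of these libraries, which may be technical.

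MAX is the shared partner of the network. MYC paired with MAX binds the E-box, the palindrome CACGTG, and activates genes of growth, ribosome production and metabolism; MXD1, MXD3, MXD4, MXI1 and MNT compete for MAX at the same sites and recruit the SIN3 corepressor, and so count as MYC antagonists. MLX is a second partner, which joins MLXIP (MondoA) and MLXIPL (ChREBP), the nutrient-sensing activators of the network, and can also pair with some of the antagonists. MYC is a classical target of Wnt signalling in colorectal tumours, while MXD1 and MXD4 are known as factors of differentiating, non-dividing cells and MXD3 as a factor of cells in S phase.

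Counts per library summed to between 18459939 and 23495607. The share of mitochondrial transcripts was 4.80% ± 0.12 (SD, n = 3) without and 26.7% ± 1.59 (SD, n = 3) with 5-FU, so shares of the remaining genes are taken from a smaller pool in the latter. Levels below are CPM, counts relative to the TMM-scaled library size, unless FPKM, the authors' values per gene length, are named. In bulk RNA a change in the number of cells of a kind and a change in RNA per cell cannot be told apart. Of 9 epithelial markers, 8 were abundant, and 3 fell, 1 rose and 5 did not pass. The 8 lie in the quintile of tested genes with the highest mean counts, where 60.8% of all genes fell and 17.5% rose. EPCAM (465 ± 58.2 to 241 ± 28.4 CPM), the intestinal factor CDX2 (125 ± 18.5 to 56.6 ± 4.40 CPM) and KRT8 (2828 ± 517 to 1905 ± 403 CPM, a call lost in 6 alternatives) fell. KRT20, a keratin of differentiated colon, rose from 0.58 ± 0.32 to 1.95 ± 0.35 CPM. The summed epithelial markers were at 4894 to 6769 CPM in control and 3726 to 4745 CPM in 5-FU libraries. Of 14 markers of immune, endothelial, fibroblast and muscle cells, 8 stayed under 1 CPM in every library, among them PTPRC and CD3E, and DCN had no count. Their summed level was 27.2 to 40.1 CPM in control and 48.4 to 80.1 CPM in 5-FU libraries. Of the 6 tested, 3 rose, 1 fell and 2 did not pass. Over all tested genes 36.3% rose and 33.9% fell, and 4 of the 6 lie in the second-lowest quintile, where 54.1% rose. ACTA2 (1.42 ± 0.49 to 5.90 ± 0.49 CPM), COL1A1 (15.2 ± 3.06 to 42.4 ± 16.1 CPM) and VWF (1.08 ± 0.17 to 2.13 ± 0.37 CPM) rose. DES fell (11.6 ± 6.41 to 3.96 ± 1.03 CPM) and was the most abundant of the 14 in control replicate 2. The part of these markers in the results was not tested.

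Promoter windows from RefSeq (GRCh38.p14, 250 bases before to 50 after a transcription start) were matched by symbol for 9 of the 10 members, all but MYC, with 12 windows in all. They are shown because the factors of the network read the E-box, and 3 of the members carry it in their own windows. The 3 windows follow, read 5′ to 3′ on the strand of the gene, with the E-box in capitals. MXD4 (chr4:2262060-2262359, minus strand) has it 238 bases before the start, MNT (chr17:2401011-2401310, minus strand) 193 bases before and MLX (chr17:42566850-42567149, plus strand) 50 bases before.
MXD4: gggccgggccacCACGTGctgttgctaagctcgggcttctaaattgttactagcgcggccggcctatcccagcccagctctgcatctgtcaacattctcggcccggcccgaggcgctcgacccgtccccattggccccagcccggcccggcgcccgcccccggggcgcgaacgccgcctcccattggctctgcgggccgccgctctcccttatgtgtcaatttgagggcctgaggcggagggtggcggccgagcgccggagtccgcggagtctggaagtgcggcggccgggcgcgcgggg
MNT: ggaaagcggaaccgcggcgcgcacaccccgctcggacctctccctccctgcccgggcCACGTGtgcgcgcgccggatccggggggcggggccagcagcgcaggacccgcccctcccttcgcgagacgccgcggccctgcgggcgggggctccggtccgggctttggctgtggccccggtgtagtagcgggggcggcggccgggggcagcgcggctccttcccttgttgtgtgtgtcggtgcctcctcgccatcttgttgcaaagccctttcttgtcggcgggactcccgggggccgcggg
MLX: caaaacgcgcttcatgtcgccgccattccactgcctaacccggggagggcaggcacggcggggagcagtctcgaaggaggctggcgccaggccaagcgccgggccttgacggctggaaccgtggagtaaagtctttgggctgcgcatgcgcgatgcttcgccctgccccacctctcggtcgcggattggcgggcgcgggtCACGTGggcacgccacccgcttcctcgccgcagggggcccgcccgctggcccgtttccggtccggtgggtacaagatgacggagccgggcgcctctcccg
The letters CACGTG read the same on both strands and occur in 7.26% of all 35116 windows of this length. Counted per gene, as the members are, 12.1% of the 11868 tested genes with a window had CACGTG. The windows of MAX, MXD1, MXD3, MXI1, MLXIP and MLXIPL do not hold these letters. The related CACGCG, searched on both strands, occurs once in the MXD3 window and in 1 of the 3 MXI1 windows, in each 9 bases after the start, against 11.4% of all windows. Of the 3 members with an E-box, 2 rose after 5-FU and MLX fell, as described next.

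After 5-FU, MYC transcripts fell and those of 4 antagonists rose, while the other antagonist, MXD3, fell with MYC. Of the 10 members 6 rose, 3 fell and MAX did not pass, by the quasi-likelihood test of edgeR with an adjusted p under 0.05. The rises of MXI1 and MLXIP were near that threshold and held in 7 and 6 of 18 alternative settings. Over all 19771 tested genes 36.3% rose and 33.9% fell, so a call by itself does not set a gene apart here. All members are well expressed: 5 lie in the quintile of tested genes with the highest mean counts and 5 in the next. In those quintiles, 17.5% and 20.7% of genes rose and 60.8% and 53.4% fell. For 8 members no 5-FU library fell within the control range or the reverse, against 74.3% of all tested genes. The median log2 fold change was 0.34 over the members and 0.09 over all tested genes. That order turned without the low-count filter, at 0.19 and 0.63, and with upper-quartile scaling the medians were 0.70 and 0.45.

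**Figure D1:**
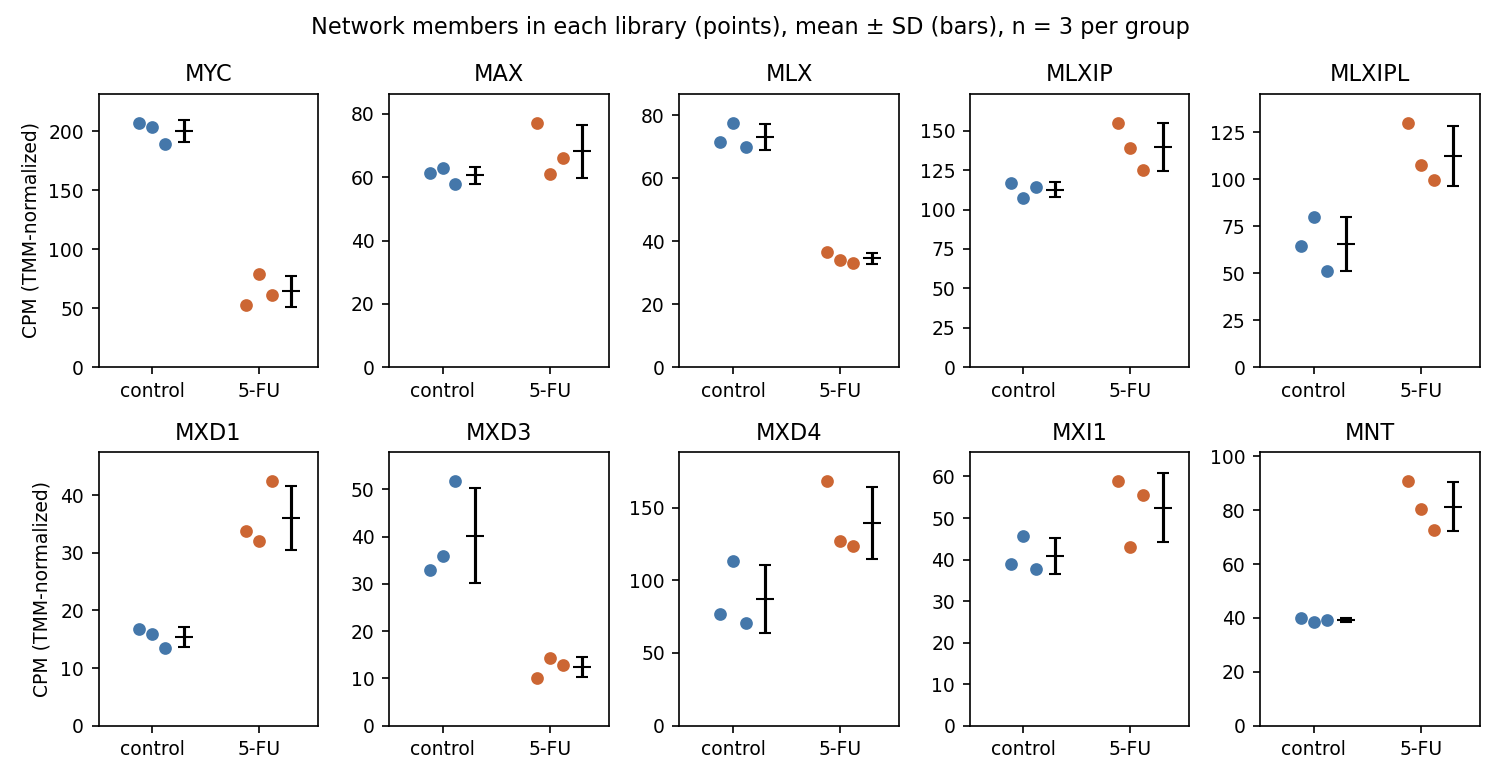
TMM-normalized CPM (vertical axis, from 0) of each network member in the 3 control and 3 5-FU libraries (points), with the group mean and SD (bars). The 5-FU libraries lie below all control libraries for MYC, MXD3 and MLX and above them for MXD1, MXD4, MNT, MLXIP and MLXIPL, while the groups overlap for MAX and MXI1.

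MYC (ENSG00000136997, chromosome 8 at 127735434 to 127741434 on the plus strand, GRCh38), the growth-promoting activator, stood at 207, 204 and 189 CPM in control replicates 1 to 3 and at 52.5, 78.9 and 61.4 CPM in 5-FU replicates 1 to 3. Every 5-FU library was below every control library, and the treated libraries were the more scattered. The means were 200.0 ± 9.57 and 64.3 ± 13.4 CPM, a 3.11-fold lower level (log2 fold change -1.64, SE 0.15, edgeR adjusted p = 4.44e-06). No annotated exon of another gene overlaps those of MYC in GENCODE release 29. The paralog MYCL fell as well, from 16.5 ± 1.84 to 9.16 ± 1.09 CPM (-0.85, SE 0.16, edgeR adjusted p = 0.00064), and MYCN was barely expressed at 1.33 ± 0.40 and 0.80 ± 0.33 CPM (-0.72, SE 0.38, edgeR adjusted p = 0.108).

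MAX (ENSG00000125952, chromosome 14 at 65006174 to 65102695, minus strand), the partner that MYC and its antagonists share, was at 61.2, 63.0 and 57.7 CPM in control and 77.2, 61.0 and 66.2 CPM in 5-FU libraries. The groups overlapped, and 5-FU replicate 1 was the highest library. Its log2 fold change of 0.17 (SE 0.12, edgeR adjusted p = 0.229) had a 95% interval of -0.10 to 0.43, which leaves out a change as large as that of MYC or MXD1. With upper-quartile scaling, which moved the median of all genes up by 0.36, MAX passed at 0.53 (edgeR adjusted p = 0.00296), as it did with the filter set at a mean of 50 counts (0.42, edgeR adjusted p = 0.0105). MGA, a large MAX partner that represses germ-cell genes, was at 56.8 ± 2.57 and 60.8 ± 1.90 CPM and did not pass (0.10, SE 0.11, edgeR adjusted p = 0.43); its sign turned in the FPKM values and without the low-count filter.

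Among the antagonists MXD1 (MAD1; ENSG00000059728, chromosome 2 at 69897688 to 69942945, plus strand) rose most. It went from 16.8, 16.0 and 13.5 CPM in control to 33.8, 32.1 and 42.4 CPM in 5-FU libraries, so that the lowest treated library was well above the highest control. The level was 2.34-fold higher (log2 fold change 1.23, SE 0.15, edgeR adjusted p = 2.73e-05). MNT (ENSG00000070444, chromosome 17 at 2384060 to 2401118, minus strand), the antagonist that most cell types express whether or not they divide, was at 40.0, 38.6 and 39.1 CPM in control and 90.8, 80.5 and 72.5 CPM in 5-FU libraries. Its control libraries were nearly level and all treated libraries lay above them, a 2.07-fold difference (1.05, SE 0.12, edgeR adjusted p = 1.59e-05). Exons of an antisense gene, AC006435.1, cover 12.2% of the exonic bases of MNT, and that gene had no count in any library.

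MXD4 (ENSG00000123933, chromosome 4 at 2247432 to 2262294, minus strand), the most abundant antagonist, was at 76.5, 114 and 71.0 CPM in control and 168, 127 and 124 CPM in 5-FU libraries. The groups did not overlap, but control replicate 2 came close to the lower treated libraries. It rose 1.60-fold (log2 fold change 0.68, SE 0.19, edgeR adjusted p = 0.00621), and its call was lost in the unfiltered FPKM table (0.52, limma adjusted p = 0.0741). MXI1 (ENSG00000119950, chromosome 10 at 110207605 to 110287365, plus strand), an antagonist with several promoters, was at 39.0, 45.7 and 37.7 CPM in control and 58.8, 43.0 and 55.4 CPM in 5-FU libraries. The ranges overlapped, since 5-FU replicate 2 was below control replicate 2. Its rise was near the threshold (0.36, SE 0.14, edgeR adjusted p = 0.0385) and held in 7 of 18 alternative settings. It was lost in DESeq2 (adjusted p = 0.0705), and in edgeR without control replicate 1 (adjusted p = 0.154), control replicate 3 (0.174), 5-FU replicate 1 (0.108) or 5-FU replicate 3 (0.133).

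MXD3 (ENSG00000213347, chromosome 5 at 177301461 to 177312757, minus strand) was the exception among the antagonists. It was at 33.0, 35.9 and 51.7 CPM in control and at 10.1, 14.2 and 12.7 CPM in 5-FU libraries, with control replicate 3 the highest and no overlap. The level was 3.25-fold lower (log2 fold change -1.70, SE 0.19, edgeR adjusted p = 1.56e-05). Reads in shared exons cannot be assigned from the tables alone, and MXD3 shares more than any other member. Exons of RAB24 cover 18.0% of its exonic bases on the same strand and those of PRELID1 22.5% on the opposite strand. RAB24 rose (1.03, SE 0.22, edgeR adjusted p = 0.00137) and PRELID1 fell (-2.08, SE 0.22, edgeR adjusted p = 1.16e-05). The part of these neighbours in the MXD3 value was not tested.

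In the MLX arm the partner fell and the activators rose. MLX (ENSG00000108788, chromosome 17 at 42567068 to 42573239, plus strand) was at 71.6, 77.6 and 69.8 CPM in control and 36.6, 33.9 and 33.1 CPM in 5-FU libraries, tightly grouped in both. It fell 2.11-fold (log2 fold change -1.08, SE 0.11, edgeR adjusted p = 9.15e-06). Exons of PSMC3IP cover 18.1% of its exonic bases on the opposite strand; PSMC3IP itself did not pass (-0.54, SE 0.23, edgeR adjusted p = 0.0517). MLXIPL (ENSG00000009950, chromosome 7 at 73593194 to 73624543, minus strand), the carbohydrate-responsive factor of liver and gut, was at 64.7, 80.1 and 51.4 CPM in control and 130.0, 108 and 99.5 CPM in 5-FU libraries. Each treated library exceeded each control library, and the rise was 1.72-fold (0.78, SE 0.16, edgeR adjusted p = 0.0013).

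MLXIP (ENSG00000175727, chromosome 12 at 122078722 to 122147347, plus strand), the widely expressed glucose sensor, was at 117, 107 and 114 CPM in control and 155, 139 and 125 CPM in 5-FU libraries. The ranges did not overlap, yet the rise was small and near the threshold (log2 fold change 0.31, SE 0.12, edgeR adjusted p = 0.0358). It held in 6 of 18 alternative settings. It was lost in DESeq2 (adjusted p = 0.0702) and in edgeR without control replicate 1 (adjusted p = 0.0958), control replicate 2 (0.134), control replicate 3 (0.118), 5-FU replicate 1 (0.0651) or 5-FU replicate 2 (0.0948).

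**Figure D2:**
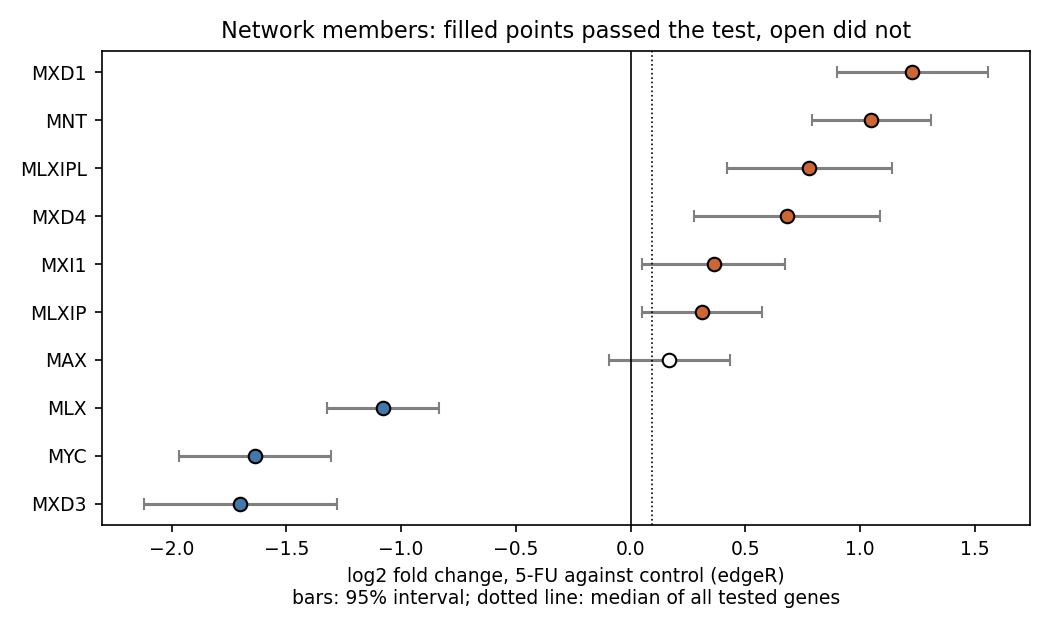
Log2 fold change of each member in 5-FU against control libraries from edgeR (points; filled, adjusted p under 0.05; open, not passed), with 95% intervals (bars) and the median of all tested genes (dotted line, 0.09). MXD3, MYC and MLX lie at -1.70, -1.64 and -1.08 and the 6 risers between 0.31 and 1.23.

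Levels of different members can be compared only per length, in FPKM and within a library. In control libraries MYC led at 69.1 ± 3.10 FPKM (SD, n = 3), above MLX at 17.8 ± 0.69 and MAX at 14.2 ± 0.46 FPKM. MAX, MLXIPL (14.1 ± 2.87) and MXD4 (12.8 ± 3.16) had overlapping ranges, as had MXI1 (9.18 ± 0.81), MLXIP (8.41 ± 0.51) and MXD3 (8.10 ± 2.10). MNT (4.67 ± 0.15) and MXD1 (2.52 ± 0.27 FPKM) were the lowest, each apart from its neighbour. In 5-FU libraries the lead of MYC was gone: MLXIPL (21.8 ± 2.34), MYC (20.2 ± 4.69) and MXD4 (18.5 ± 2.62 FPKM) overlapped each with the next. MAX (14.4 ± 1.28 FPKM) followed, and MXD3 was now the lowest at 2.26 ± 0.45 FPKM, below MXD1 at 5.34 ± 0.91.

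Set against each other within a library, which removes any scaling between libraries, MYC and its antagonists changed places in FPKM. The summed FPKM of the 5 antagonists was 0.477, 0.588 and 0.553 times that of MYC in control replicates 1 to 3, and 3.10, 1.69 and 2.30 times in 5-FU replicates 1 to 3. All control libraries were thus below 1 and all treated libraries above it. The crossing of 1 rests on the division by gene length. In CPM, without that division, the ratios were 0.991, 1.23 and 1.13 in control and 6.89, 3.76 and 5.00 in 5-FU libraries. On the log2 scale the FPKM ratio was -0.90 ± 0.16 in control and 1.20 ± 0.44 in 5-FU libraries, a difference of 2.09. As a sum over the members it was given no test. Against MAX, MYC was at 5.00, 4.78 and 4.84 times its FPKM in control and at 1.0, 1.91 and 1.37 times in 5-FU libraries. The antagonists were at 2.38, 2.81 and 2.68 times MAX in control and 3.12, 3.22 and 3.15 times in 5-FU libraries. The loss of MYC thus made up most of the shift, with log2 differences of -1.82 for MYC to MAX and 0.27 for the antagonists to MAX.

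**Figure D3:**
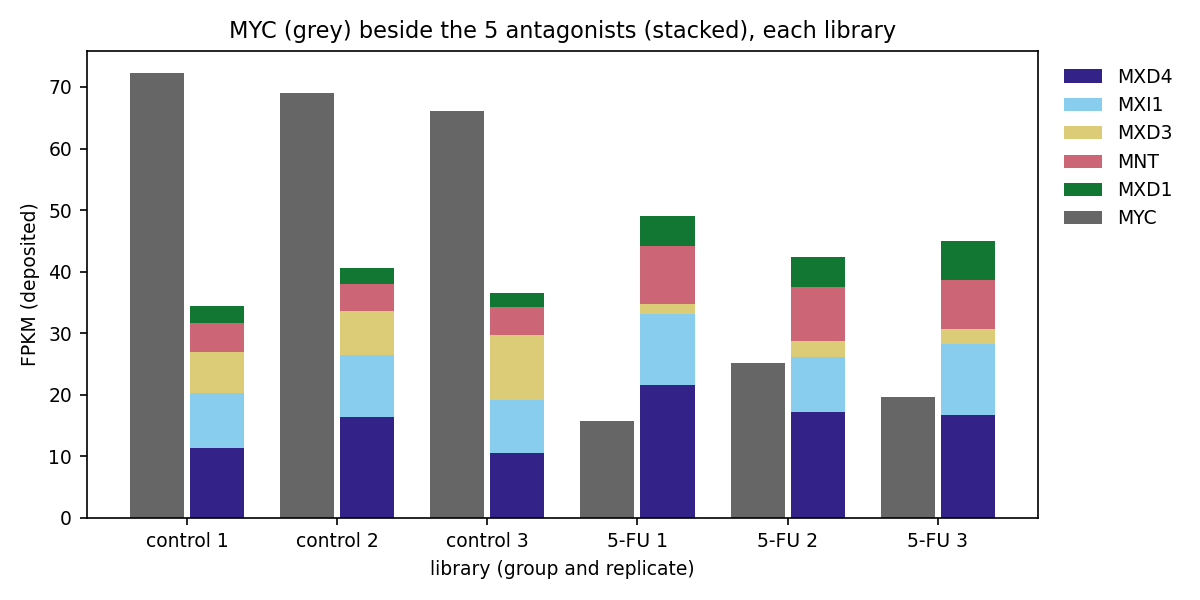
Deposited FPKM (vertical axis, from 0) of MYC (grey) and of the 5 antagonists (stacked colours) in each library. MYC exceeds the stack in every control library and is below it in every 5-FU library.

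The antagonists differed in their ratio to MYC. MXD1 gained 7.37-fold on MYC, MNT 6.51-fold, MXD4 5.12-fold and MXI1 4.03-fold, each with ranges that did not overlap. MXD3 kept its ratio to MYC, at 0.0928, 0.103 and 0.159 in control and 0.112, 0.105 and 0.121 in 5-FU libraries, with overlapping ranges. Within the summed antagonists the share of MXD3 went from 21.9% ± 6.05 to 5.03% ± 1.33 (SD, n = 3 per group). The shares of MNT (12.6% ± 1.43 to 19.2% ± 1.56) and MXD1 (6.81% ± 1.06 to 11.8% ± 2.23) were higher in every treated library. MXD4 (34.0% ± 5.82 and 40.6% ± 3.31) and MXI1 (24.7% ± 1.14 and 23.4% ± 2.27) overlapped between groups.

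The partners MAX and MLX shifted too. MLX was at 1.22, 1.28 and 1.26 times the FPKM of MAX in control and at 0.494, 0.578 and 0.521 times in 5-FU libraries. MLXIP and MLXIPL together were at 1.30, 1.34 and 1.15 times MLX in control and at 4.44, 4.06 and 3.81 times in 5-FU libraries. Neither ratio overlapped between the groups, and the activators of this arm thus outnumbered their partner transcript by more after treatment.

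**Figure D4:**
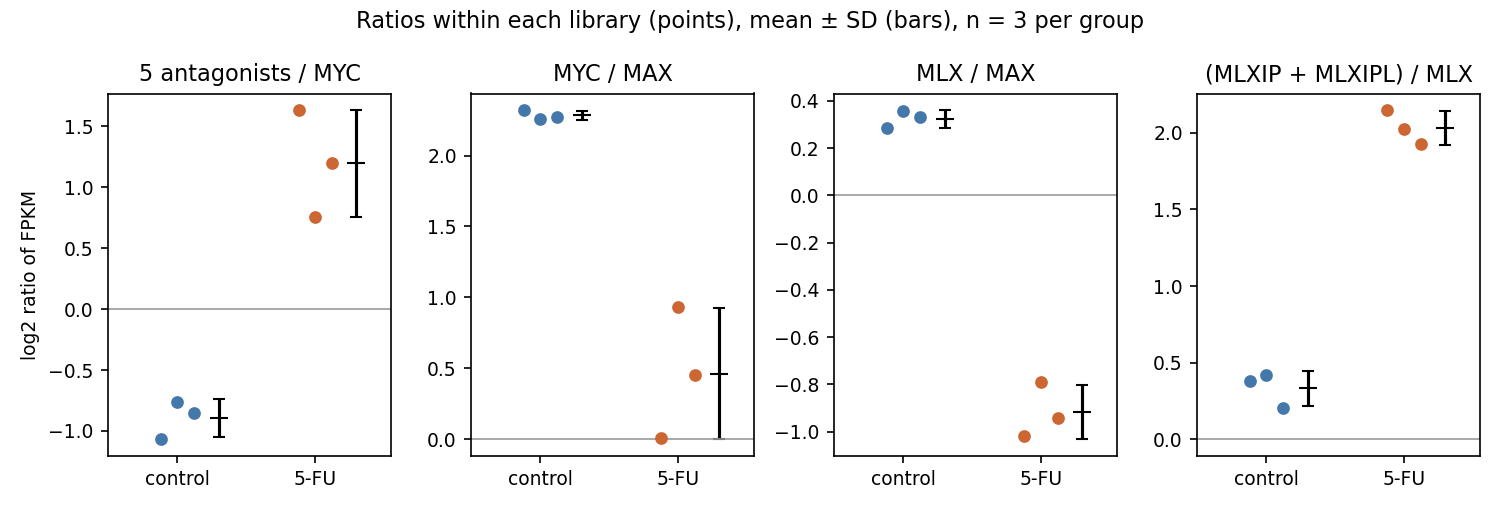
Log2 ratios of FPKM within each library (points), with mean and SD (bars), for the 5 antagonists to MYC, MYC to MAX, MLX to MAX, and MLXIP plus MLXIPL to MLX. The groups are separate in all 4 panels, and the antagonist ratio lies below 0 in control and above 0 in 5-FU libraries.

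Genes that MYC is known to induce fell in large number. Of 60 listed, all tested, 53 fell, 1 rose and 6 stayed outside the threshold, and the median log2 fold change was -1.23. They are abundant genes: 28 lie in the quintile of highest mean counts, where 60.8% of all genes fell, and 26 of these fell. In the next quintile all 22 fell, against 53.4% of all genes there. The smallest p-values belonged to the replication helicase subunit MCM5 (120.3 ± 25.3 to 13.9 ± 2.84 CPM, -3.12), the sterol-related membrane protein TMEM97 (-2.50), the mitotic kinase PLK1 (-3.81) and the uracil glycosylase UNG (-1.90), of which MCM5, PLK1 and UNG also serve DNA replication, mitosis or repair. Named after their values were seen, as textbook targets, NCL, nucleolin, fell from 1143 ± 208 to 262 ± 47.4 CPM (-2.12), ODC1, the first enzyme of polyamine synthesis, from 385 ± 90.3 to 123 ± 31.7 CPM (-1.65), and CDK4 by 1.99 on the log2 scale. The single riser, NOP2, was low at 2.81 ± 0.32 and 5.95 ± 0.40 CPM.

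Genes that MYC is known to repress went both ways. Of 12, 4 rose and 6 fell, at a median of -0.08, while over all tested genes 36.3% rose and 33.9% fell. Of the 7 listed genes in the top 2 abundance quintiles 3 rose and 3 fell, against 19.1% and 57.1% of all genes there. The median of the list turned to 0.27 with upper-quartile scaling (5 higher, 5 lower). It was 0.17 with the filter at a mean of 50 counts and 0.02 with plain library totals. The cell cycle inhibitors CDKN2B (1.87 ± 0.23 to 18.7 ± 4.34 CPM, 3.32, SE 0.23) and CDKN1A (267 ± 78.7 to 1136 ± 252 CPM, 2.09, SE 0.23) rose; CDKN1A is also a classical p53 target. CDKN1B, another inhibitor, fell (-1.53, SE 0.14), as did the differentiation factor CEBPA (-1.82, SE 0.15).

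The E-box was frequent in the promoters of the induced list. Of the 11868 tested genes with a promoter window 12.1% had CACGTG, and of the induced list 26 of 49 (53.1%) had it. Within that list 22 of 26 genes with the letters fell, at a median of -1.25, and 21 of 23 without them, at -1.21. Over all matched genes the median log2 fold change was -0.29 with the E-box and -0.17 without. That difference of -0.12 shrank to -0.04 with the filter at a mean of 50 counts and grew to -0.23 without the low-count filter.

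The corepressors that MXD proteins recruit fell for 14 of 18 genes and rose for 1, at a median of -0.89; with upper-quartile scaling 10 fell and 4 rose. Of these genes 15 lie in the top 2 abundance quintiles, where 12 fell, against 57.1% of all genes there. HDAC2 (184 ± 18.7 to 77.5 ± 5.22 CPM, -1.25) and HDAC1 (305 ± 12.2 to 142 ± 8.62 CPM, -1.10), the histone deacetylases of the complex, fell with the histone-binding RBBP4 (-1.45) and with SAP18 (-1.28). The scaffold SIN3 itself split, a pair named after its values were seen. SIN3A went from 96.0, 86.1 and 102 to 60.3, 57.0 and 55.4 CPM (-0.72, SE 0.11, edgeR adjusted p = 1.72e-04). SIN3B went from 83.3, 79.6 and 92.1 to 175, 156 and 138 CPM (0.88, SE 0.13, edgeR adjusted p = 8.64e-05). Neither paralog overlapped between groups.

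Coactivators and chromatin partners of MYC fell for 12 of 18 and rose for 2, at a median of -0.43; with upper-quartile scaling 8 fell and 4 rose. Of the 17 in the top 2 abundance quintiles 11 fell (64.7%), a share near the 57.1% of all genes there. The ATPases RUVBL2 (-1.88) and RUVBL1 (-1.51), the actin-related ACTL6A (-1.85) and the remodeller subunit SMARCB1 (-1.69) fell. The 2 that rose, named after their values were seen, were DMAP1 (0.63) and the elongation factor SUPT5H (0.44).

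Of 18 factors that set the stability of the MYC protein 15 fell and 3 rose, at a median of -0.91; with upper-quartile scaling 13 fell and 3 rose. In the top 2 abundance quintiles 13 of 15 fell, against 57.1% of all genes there. The list holds both factors that mark MYC for degradation and factors that protect it, so these counts give no direction for MYC stability. The mitotic kinases AURKA (128 ± 44.7 to 5.47 ± 1.61 CPM, -4.54) and PLK1 fell, as did CIP2A (-2.95), an inhibitor of the phosphatase PP2A that protects MYC, and the ubiquitin ligase subunit FBXL14 (-1.76). The 3 that rose, named after their values were seen, were FBXW7, the ligase subunit that marks phosphorylated MYC for degradation (27.3 ± 1.08 to 52.3 ± 5.94 CPM, 0.94, SE 0.12), FBXO32 (3.49 ± 0.98 to 17.9 ± 3.48 CPM, 2.36, SE 0.23) and the nucleolar deubiquitinase USP36 (0.91, SE 0.12). MYC protein was not measured.

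Targets of MondoA and ChREBP fell for 9 of 11 tested genes and rose for none, while MLXIPL and MLXIP were higher and their partner MLX was lower. The median was -1.33, and with upper-quartile scaling 8 fell and 1 rose. A link between these directions was not tested. All 9 that fell lie in the top 2 abundance quintiles, where 57.1% of all genes fell. The lipogenic enzymes FASN (605 ± 34.9 to 177 ± 10.6 CPM, -1.77), ACLY (-1.47), ELOVL6 (-1.33) and SCD (-2.18), which sterol-responsive factors also control, had the smallest p-values. TXNIP, the thioredoxin-binding protein used as a readout of MondoA and named after its values were seen, was at 252, 518 and 317 CPM in control and 99.6, 92.8 and 10.2 CPM in 5-FU libraries (-2.43, SE 0.59, edgeR adjusted p = 0.00328). ARRDC4, an alpha-arrestin used in the same readout, was at 35.0, 74.3 and 46.0 CPM and at 23.9, 23.3 and 7.67 CPM (-1.50, SE 0.37, edgeR adjusted p = 0.00328). Control replicate 2 was highest and 5-FU replicate 3 lowest for both; without 5-FU replicate 3 the values were -1.94 and -1.16 and still passed. The TXNIP window (chr1:145996530-145996829, minus strand, GRCh38.p14, RefSeq) is shown because it holds a paired half-E-box, in capitals, of the kind that MondoA and ChREBP read with MLX.
TXNIP: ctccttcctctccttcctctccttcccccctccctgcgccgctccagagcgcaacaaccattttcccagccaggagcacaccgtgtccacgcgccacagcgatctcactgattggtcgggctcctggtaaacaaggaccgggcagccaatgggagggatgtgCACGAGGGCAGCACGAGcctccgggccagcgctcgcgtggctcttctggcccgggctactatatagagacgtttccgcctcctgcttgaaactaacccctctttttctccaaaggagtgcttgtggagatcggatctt
The letters searched on both strands, CACGNG, then 5 bases of any kind and CACGNG again, begin 88 bases before the start. They occur in 20 of the 35116 windows (0.057%), and in none of the members' windows. The window of ARRDC4 does not hold them either, nor does the other TXNIP window (chr1:145995695-145995994).

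**Figure D5:**
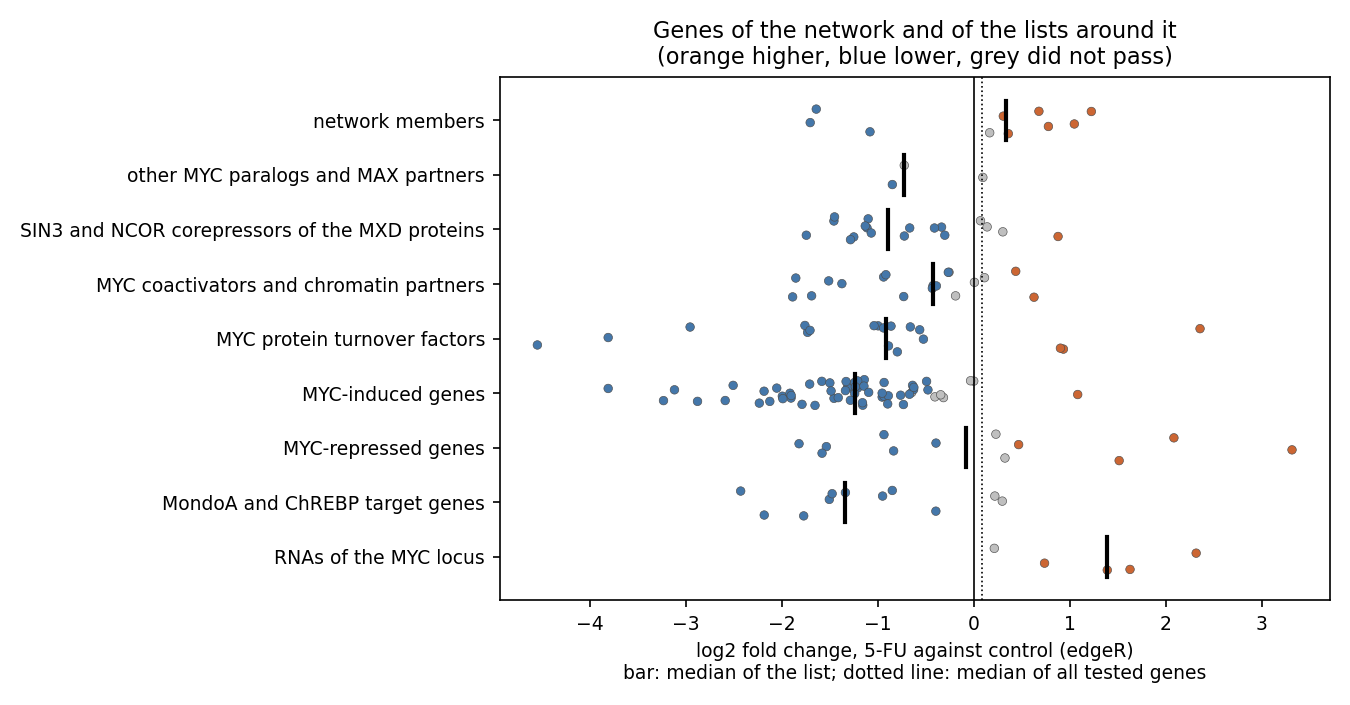
Log2 fold change (edgeR) of each tested gene of the network and of the lists around it (points; orange higher, blue lower, grey not passed), with each list's median (bar) and that of all tested genes (dotted line, 0.09). Genes that MYC induces centre on -1.23 and RNAs of the MYC locus on 1.39.

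Most of the RNAs tested near MYC rose. Of 8 named, 6 were matched and 5 tested; 4 rose, and PCAT1 did not pass (0.22, SE 0.24, edgeR adjusted p = 0.432). The median was 1.39. Of these, 3 lie in the second-lowest abundance quintile, where 54.1% of all genes rose, and PVT1 and CASC19 in the top 2, where 19.1% rose. PVT1, the long noncoding RNA gene that starts 53.1 kb after the end of MYC on the same strand, was at 10.3, 7.59 and 9.23 CPM in control and 43.3, 51.3 and 40.9 CPM in 5-FU libraries (log2 fold change 2.32, SE 0.16, edgeR adjusted p = 9.29e-07). Every treated library was several times above every control library. CASC19, which ends 508 kb before MYC on the other strand, was at 45.1, 31.2 and 21.4 CPM and at 96.9, 122 and 83.5 CPM (1.63, SE 0.23, edgeR adjusted p = 8.39e-05). POU5F1B, a retrogene copy of POU5F1 whose reads are uncertain for that reason, rose from 1.23 ± 0.50 to 3.25 ± 0.44 CPM (1.39, SE 0.31, edgeR adjusted p = 0.00179). Its span overlaps that of PCAT1 on the same strand and that of CASC8 on the other. CASC19 lies within the span of PCAT1 on the other strand. Shared exons were not examined for the RNAs of this locus. CASC11, the nearest at 1.47 kb, had 3, 5 and 4 counts in control and 0, 1 and 2 counts in 5-FU libraries, too few to test.

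Genes with a pattern most like that of MYC over the 6 libraries, by Pearson correlation of log2(CPM + 1) among the 11408 protein-coding genes that averaged 100 or more counts, were RGS14 (0.9991), NET1 (0.9985), PYM1 (0.9980), SNX9 (0.9980) and MACROD1 (0.9978). With 6 libraries in 2 groups such values mostly restate the group difference, and 3167 of these genes (27.8%) were above 0.95. NET1, a guanine nucleotide exchange factor for RhoA, went from 142, 134 and 128 CPM to 38.4, 52.4 and 44.9 CPM, with 5-FU replicate 2 the highest treated library, as for MYC.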

How the data were processed

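RNA of 3 control and 3 5-FU samples was isolated in TRIzol and sequenced from NEBNext Ultra RNA libraries, per the labels' protocols. HISAT2 2.0.5, featureCounts 1.5.0-p3, DESeq2 1.16.1 and build GRCh38 are named in the submitters' processing notes; no strand setting is named. The deposited counts are whole numbers per gene, and each of the 58735 genes was found in GENCODE release 29 at the same position. The deposited FPKM equal the count over gene length and over 1 constant per library, 0.892 to 0.986 times the count total in control and 1.07 to 1.16 times in 5-FU libraries.

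Counts were tested with edgeR 4.0.16 in R 4.3.3 (filterByExpr defaults, TMM, quasi-likelihood, group alone, Benjamini-Hochberg over 19771 genes); an adjusted p under 0.05 was called. The SE is the size of the unshrunk coefficient over the root of F. Alternatives used DESeq2 1.42.0, limma 3.58.1 (voom, and log2(FPKM + 1) or log2(FPKM + 0.1) with FPKM of at least 1 in 3 libraries, or unfiltered), other scalings and filters, no mitochondrial genes, a replicate block and each library left out; fold changes on those log2 scales understate low genes. The functions were tested on simulated data.

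The members, lists and alternatives were chosen with earlier results of these data known; the E-box values under other settings were added later. All members are named, and of each list up to 4 genes of smallest p that passed (3 for the locus; all for the paralogs), plus 5 genes most like MYC.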

Additional observations from a re-analysis of the deposited data

How the results depend on the processing

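Each member kept its direction in all 18 alternatives run, and MYC, MXD1, MXD3, MNT, MLX and MLXIPL passed in all of them. MYC ranged from -1.82 to -1.28 on the log2 scale, and from -1.82 to -1.50 with a library left out. The count of members that rose was 6, and between 4 and 5 with a library left out. It was 4 in DESeq2, with DESeq2 size factors, without the low-count filter and in the filtered FPKM values. It stayed at 6 with plain library totals, without mitochondrially encoded genes and in limma-voom. In the unfiltered FPKM table it was 3, where MXD4, MXI1 and MLXIP did not pass. With upper-quartile factors or a mean count of at least 50 it was 7, where MAX passed. The 3 that fell passed throughout. For all genes 7171 rose and 6706 fell, against 9602 and 4614 with upper-quartile factors, and 4320 and 7136 in the FPKM values. The log2 ratio of antagonists to MYC differed by 1.87 to 2.31 with a library left out, by 2.19 from CPM, 2.12 without MXI1 and 1.98 without MNT. The difference of medians for E-box promoters was -0.12, and -0.23 without the low-count filter, -0.0448 at a mean count of at least 50, -0.0412 on log2(FPKM + 1) and -0.0342 on log2(FPKM + 0.1); the cause was not tested. MGA turned to -0.0503 without the low-count filter, -0.0363 on log2(FPKM + 1), filtered or not, and -0.0459 on log2(FPKM + 0.1). Counts of list genes that rose moved by over 1.5 times in the cases that follow. Other MAX partners went from 0 to 1 (upper quartile, mean count of 50). Corepressors went from 1 to 4 (the same settings) or 2 (plain totals). Coactivators went from 2 to 4 (upper quartile) or 1 (no filter). MondoA targets went from 0 to 1 (upper quartile) and locus RNAs from 4 to 2 (filtered FPKM). Epithelial markers went from 1 to 3 (upper quartile) or 0 (filtered FPKM). Markers of other cell types went from 3 to 5 (without control replicate 2).

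Deviations of same-numbered libraries from their group means correlated at -0.11, -0.28 and 0.076, and those of differently numbered libraries at -0.17 to 0.22. Deviations from a mean of 3 libraries are tied to each other, so these values cannot settle whether replicate numbers pair the libraries. With the replicate number as a block all genes called numbered 13243, against 13877 without it, and 4 members rose; MYC stood at -1.66, and MXI1 (adjusted p = 0.0742) and MLXIP (0.0773) did not pass. With 3 libraries per group, changes of the size of MAX's lie within the spread of these samples.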
